A study of Homo sapiens with 2 samples.

Results

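The transcripts of 4 genes of the stress response of translation, ATF4, GCN1, EIF2S1 and EIF4EBP1, carried YB-1 PAR-CLIP clusters in HEK293T cells. A cluster was counted to a gene when it touched, by 1 base or more, the stretch of the same strand that GENCODE release 44 gives the gene. This gave 13 of the 3393 clusters of the series, 6 of 1382 in Rep.A and 7 of 2011 in Rep.B, at 7 sites. The genes were chosen by their clusters in these tables, so their counts and coverage are a description and carry no test. No cluster lay on the other strand of any of the 4 genes.

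HEK293T is a human embryonic kidney line, used here as wild type, and the 2 libraries, Rep.A and Rep.B, were independent replicates of 1 condition with 0 control libraries. Both received 100 µM 4-thiouridine for 16 h and UV light of 365 nm at 0.15 J/cm2, without a stress treatment in the labels. The nucleoside enters RNA in place of uridine, crosslinks to bound protein under this light and is then read as C in place of T. RNA was trimmed with RNase T1, which cuts after G. It was recovered from cell lysate, cleared of debris, with antibodies against YB-1, a cold shock domain protein that coats mRNA. Rep.B had 2.63 times the mapped reads of Rep.A.

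Under stress, kinases phosphorylate the alpha subunit of the initiation factor eIF2, which lowers general initiation. GCN1 binds ribosomes and activates the kinase GCN2, and EIF2S1 encodes the phosphorylated subunit itself. ATF4 is a transcription factor whose mRNA is translated more when eIF2 is phosphorylated, because ribosomes that have read a short upstream frame then pass a later one that overlaps the ATF4 start codon. EIF4EBP1 encodes 4E-BP1, a repressor that holds the cap-binding protein eIF4E and lets it go when mTOR complex 1 phosphorylates it.

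The reference RNA sequences of the sites in ATF4, GCN1 and EIF2S1 are shown because positions and motifs are given against them. Each is written 5′ to 3′ with T for U, from hg38, and capitals mark CATC. The motifs searched were CATC and CACC, on the RNA strand only, in the joined interval of both replicates.
ATF4 site 1 (chr22:39521420-39521436, plus strand): cctcgattccagcaaag
ATF4 site 2 (chr22:39521960-39521982, plus strand): gaacccaattggcCATCtcccag
ATF4 site 3 (chr22:39522281-39522304, plus strand): cctccCATCtccaggtgttctctg
ATF4 site 4 (chr22:39522318-39522339, plus strand): cccaaaccttacgatcctcctg
GCN1 site (chr12:120137672-120137696, minus strand): ctgcCATCATCctcaaCATCtactg
EIF2S1 site (chr14:67364939-67364958, plus strand): tctatcaacaaactCATCcg
The GCN1 sequence holds CATC at 3 positions, of which the first 2 overlap by 1 base, and the EIF2S1 sequence holds it near its 3′ end. ATF4 site 1 and ATF4 site 4 hold neither motif. The EIF4EBP1 site is described by position only. It held CACC and no CATC.

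All 6 Rep.A clusters of the 4 genes overlapped a Rep.B cluster, against 80.5% of all Rep.A clusters. Of the 7 Rep.B clusters, 6 overlapped a Rep.A cluster, against 55.5% of all. A site with a cluster in both replicates is called reproducible, and 6 of the 7 sites were. Of the 20046 protein-coding genes, 3.32% held a reproducible site and 5.56% a cluster in either replicate. ATF4 held 3 reproducible sites, which put it among the 24 genes with at least 3 such sites of the 665 genes with any. This place is a description, since ATF4 was chosen by its clusters. The sequences of all 3 have exact copies in pseudogenes, described further on. None of the 3 is left when only sequences at 1 place in the genome are kept. GCN1, EIF2S1 and EIF4EBP1 held 1 each, as did 569 of those 665 genes.

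Of the 6 reproducible sites, 4 lay in coding sequence, 1 in a 5′ UTR and 1 in a 3′ UTR. Over the 591 reproducible regions of all genes that could be placed on the selected transcripts, 59.7% lay in coding sequence, 1.69% in the 5′ UTR and 38.2% in the 3′ UTR. CATC or CACC occurred in 4 of the 6, against 61% of all 1106 reproducible regions of at most 60 bases. CATC was present in 3 of them (37.7% of all) and CACC in 1 (37.4% of all). With 6 sites, no difference from these shares could be read.

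Coverage is the deposited mean number of reads per base of a cluster, not scaled for library depth. ATF4 site 4 had the highest coverage of the 4 genes, 84.9 in Rep.A and 183 in Rep.B, which in each replicate exceeded every other site of these genes. It stood at or above 98.3% of the 779 Rep.A clusters in exons of protein-coding genes and 97.9% of the 996 of Rep.B. The EIF4EBP1 site had a coverage of 10.8 in Rep.A and 35 in Rep.B. The EIF2S1 site had 13.8 and 20. The medians of clusters in protein-coding exons were 13.8 in Rep.A and 33 in Rep.B, so EIF4EBP1 was above the median in Rep.B alone and EIF2S1 was at the median in Rep.A and below it in Rep.B. ATF4 site 1 had 9 in Rep.A and 18 in Rep.B, the GCN1 site had 5.76 and 11, and ATF4 site 2 had 2.96 and 12. ATF4 site 3 had 8 in Rep.B and no cluster in Rep.A. At these 4 sites every value was below the median of its replicate.

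**Figure D1:**
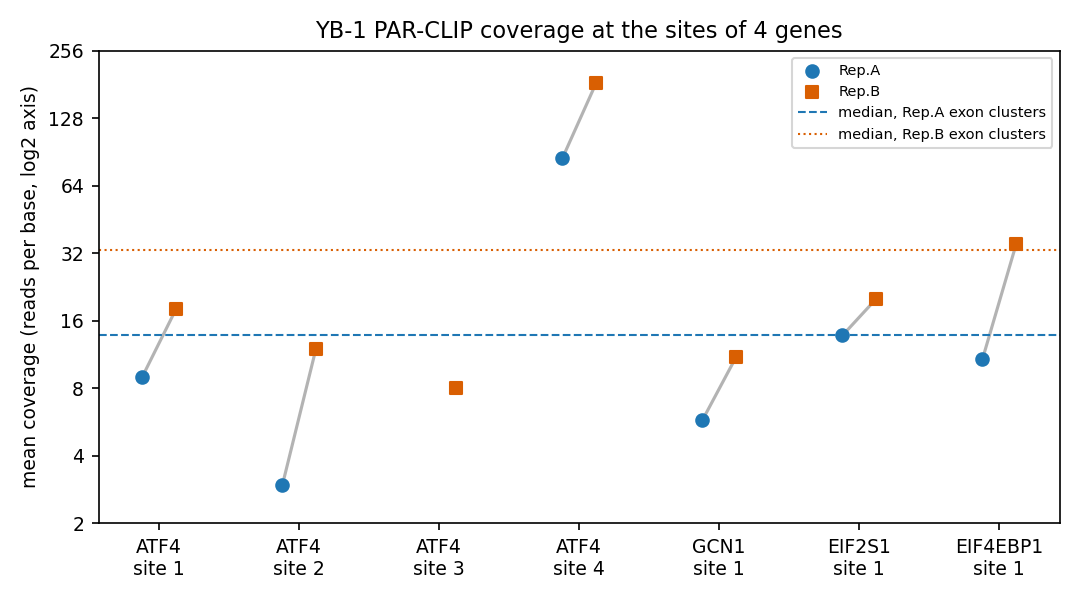
Mean coverage in reads per base (log2 axis) of each cluster of the 4 genes, with circles for Rep.A, squares for Rep.B, a grey line joining the clusters of 1 site, and horizontal lines at the medians of clusters in exons of protein-coding genes (13.8 in Rep.A and 33 in Rep.B). ATF4 site 4 is above both medians by a wide margin, and ATF4 site 3 has a Rep.B point only.

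Over all 1116 overlapping pairs of clusters, Rep.B exceeded Rep.A by a median of 1.38 on the log2 scale, which is 2.6-fold, with an SD of 0.73. Scaled by this median, the coverage of ATF4 site 4 was 84.9 and 70.5 in the replicates, while the other 5 reproducible sites ranged from 2.96 to 13.8. Ordered by the geometric mean of their scaled coverage, the sites were ATF4 site 4, EIF4EBP1, EIF2S1, ATF4 site 1, GCN1 and ATF4 site 2. The geometric mean of ATF4 site 4 was 6.42 times that of the EIF4EBP1 site, and the ranges of the replicates did not overlap. Of the 5 pairs of neighbours in this order, 3 had overlapping ranges, namely EIF4EBP1 with EIF2S1, EIF2S1 with ATF4 site 1, and GCN1 with ATF4 site 2. ATF4 site 1 exceeded the GCN1 site by 1.60-fold without overlap of the ranges, which rest on 2 values each. This order uses the clusters listed at ATF4 itself, and reads at its sites can be shared with the pseudogene copies described further on. With the clusters at the copies added, the geometric mean at ATF4 site 1 was 12.7, above the 12.1 of EIF4EBP1. The ranges of these sites overlapped, 11.8 to 13.8 and 10.8 to 13.5. At ATF4 site 2 the geometric mean was 9.70, above the 4.94 of GCN1, without overlap of the ranges. ATF4 site 4 stayed highest at 84.8. These sums are not a like measure in the 2 replicates, as described further on.

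The ratio of Rep.B to Rep.A ranged from 1.46 to 4.06 over the 6 sites. After subtraction of the median of all pairs, the log2 difference was within 1 SD of all pairs at 5 sites. The exception was the EIF2S1 site at -0.84, with a smaller difference in 6.9% of all pairs. ATF4 site 2 was at 0.64, above 89.3% of all pairs, and had the lowest coverage of the 4 genes in Rep.A. The remaining values were -0.38 at ATF4 site 1, -0.27 at ATF4 site 4, -0.44 at the GCN1 site and 0.32 at the EIF4EBP1 site. The median of the 6 was -0.32.

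**Figure D2:**
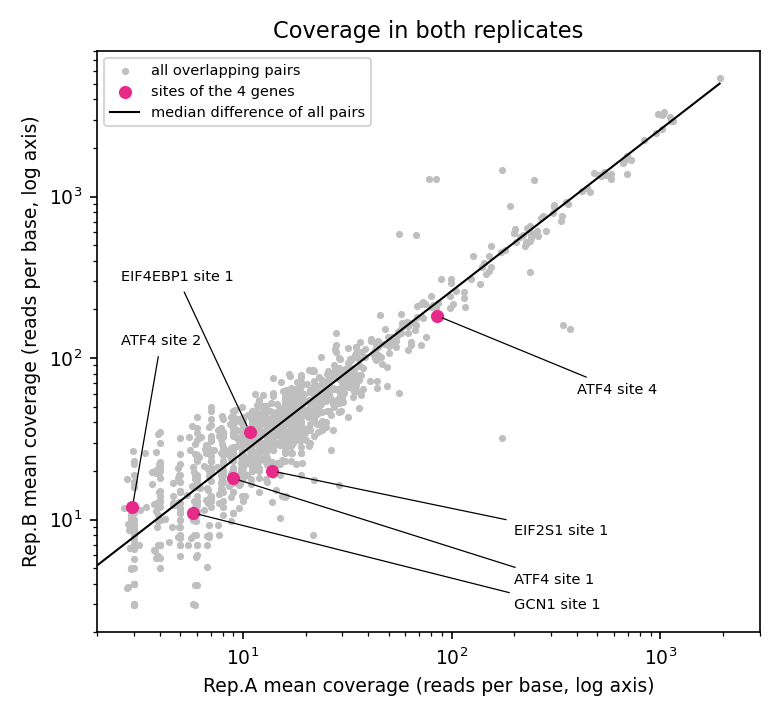
Mean coverage of overlapping clusters in Rep.A (x axis) and Rep.B (y axis), in reads per base on log axes, with the 6 reproducible sites of the 4 genes named over all 1116 pairs in grey, of which 3 fall outside the axes. The line is the median 2.6-fold difference, and the named sites lie on both sides of it.

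ATF4 (ENSG00000128272, chr22:39519695-39522683, plus strand) was read on ENST00000674920.3, which has 3 exons and 1419 bases, with a 5′ UTR of 282, a coding sequence of 1056 including the stop codon, and a 3′ UTR of 81 bases. Site 1 lay in exon 2, in the 5′ UTR, and ended 9 bases before the ATF4 start codon. The stretch from its first base to the start codon, in capitals, runs as follows.
ATF4 site 1 to start codon (chr22:39521420-39521448): cctcgattccagcaaagcaccgcaacATG
CACC follows directly on the last base of the site, which therefore counts as holding the motif only when it is extended by 10 bases.

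The 5′ UTR of this transcript held 3 reading frames that begin with ATG. Positions are counted from the first base of the ATF4 start codon as 0. Frame 1 has 1 codon before its stop and begins at -258. Frame 2 has 3 codons and begins at -196. Frame 3 has 59 codons, begins at -97 and runs 83 bases into the ATF4 coding sequence in another frame. Site 1 lay inside frame 3, over its codons 24 to 30, with 71 bases of the frame before it and 92 after it. No cluster of either replicate lay in frame 1 or frame 2, and none in the part of frame 3 that overlaps the ATF4 frame.

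Of 11 ATF4 transcripts with a coding sequence, 9 held the whole of site 1 in an exon. In the same 9 the site was inside an upstream frame and ended 9 bases before the start codon. Over all genes, 10 reproducible regions of at most 60 bases lay in a 5′ UTR, and 3 of them, in ATF4, ZNF146 and ZNF142, were inside an upstream frame that begins with ATG. In ZNF146 and ZNF142 the distance to the start codon was 140 and 462 bases. In HNRNPC, ARF1 and PAIP2 it was 0, 1 and 2 bases, so ATF4 was the fourth nearest of the 10. The coverage of the 10 in Rep.A ranged from 4 in TUBB to 23.9 in HNRNPC.

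The other 3 ATF4 sites lay in exon 3, in the coding sequence. Site 2 covered codons 138 to 146 of 351, and its middle lay 40.2% into the coding sequence. Site 3 covered codons 245 to 253. Site 4 covered codons 258 to 265, and its middle lay 74.0% into the coding sequence. Sites 3 and 4 were 13 bases apart, against 298 bases between sites 2 and 3 and 422 between sites 1 and 2. The cluster found in Rep.B alone thus stood next to the site of highest coverage, whose Rep.B coverage was 183 against 8 at site 3.

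**Figure D3:**
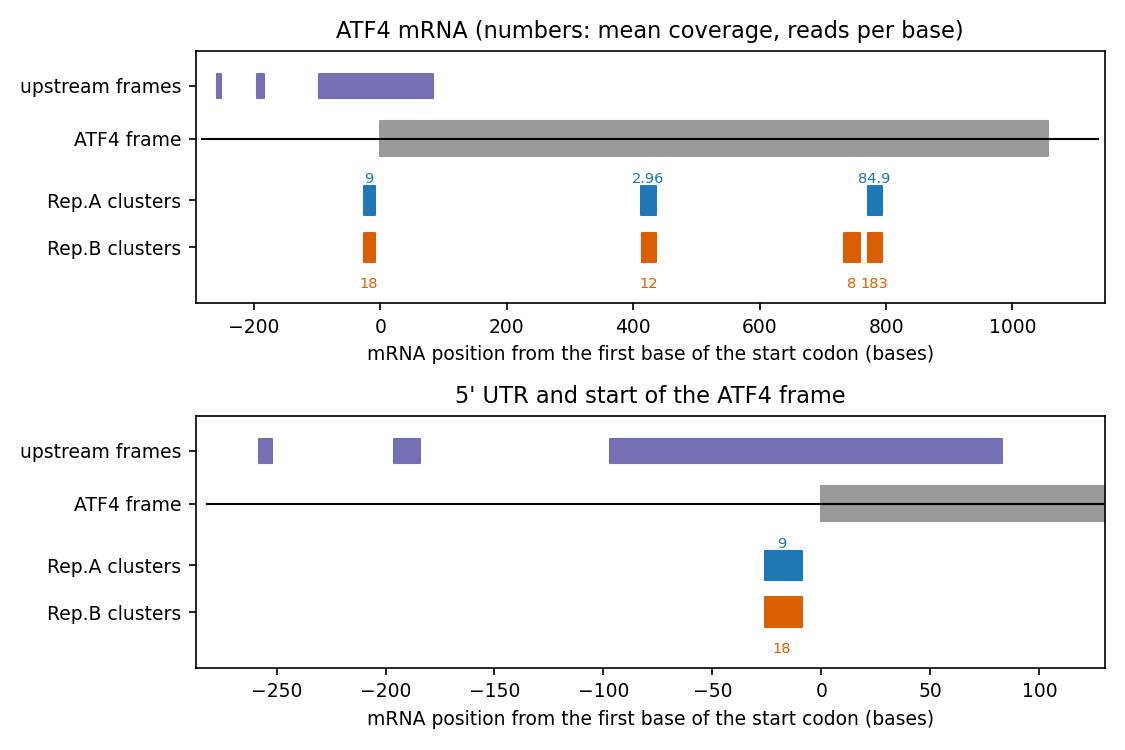
ATF4 mRNA drawn to scale, with the x axis in bases from the first base of the start codon. Purple bars are the 3 upstream frames, the grey bar is the ATF4 frame, and blue and orange bars are Rep.A and Rep.B clusters with their mean coverage in reads per base. The lower panel enlarges the 5′ UTR, where site 1 lies inside frame 3 and 9 bases before the start codon.

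Every ATF4 cluster had further exact copies of its sequence in hg38. Site 1 had 1 copy, in ATF4P4 on chromosome 11, which GENCODE lists as a transcribed processed pseudogene. Site 4 had 1 copy, in the processed pseudogene ATF4P3 on chromosome 17. Sites 2 and 3 each occurred 3 times in the genome, in ATF4 and in both of these pseudogenes. The ATF4P4 copy of site 4 differed by G13A (the ATF4 base first, positions counted from 1 at the 5′ end of the site). Site 1, of 17 bases, also had 11 copies with 1 mismatch, and no cluster was listed at any of these. The authors' aligner reports 1 position for a read that matches several equally well, so reads of these sites can be listed at a copy and reads of a copy at ATF4. Of 1398 windows of 22 bases along the ATF4 mRNA, 45.2% occurred exactly in ATF4P3 and 44.2% in ATF4P4, and 33.6% in none of 4 ATF4 pseudogenes.

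Clusters were also listed at the copies. At the copy of site 1 in ATF4P4 (chr11:113790292-113790313) the Rep.A coverage was 2.77 and that of Rep.B 17.9, beside 9 and 18 at ATF4 itself. At the copy of site 2 in ATF4P3 (chr17:76226371-76226393) it was 3.91 for Rep.A and 9.83 for Rep.B. At the copy of site 2 in ATF4P4 (chr11:113790730-113790752) a cluster of 13.8 was found in Rep.B only. A cluster of 13 bases within the copy of site 4 in ATF4P3 had 17 in Rep.A and none in Rep.B, and its 13 bases occur 12 times in the genome. No cluster was listed at the copies of site 3.

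Added over ATF4 and its copies, coverage at site 1 came to 11.8 and 35.9 in the replicates, of which ATF4 held 76.5% and 50.2%. At site 2 it was 6.87 and 35.6, of which ATF4 held 43.04% and 33.7%. At site 4 it was 102 and 183, of which ATF4 held 83.3% and 100%. Site 4 had the highest summed coverage in both replicates. A locus without a cluster adds 0 to these sums. The clusters added have unlike widths, 17 and 22 bases at site 1 and 22 and 13 bases at site 4. The sums are therefore not a like measure in the 2 replicates. Their difference between replicates was taken only as an alternative to the main processing. Which of the loci gave rise to the reads was not tested.

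**Figure D4:**
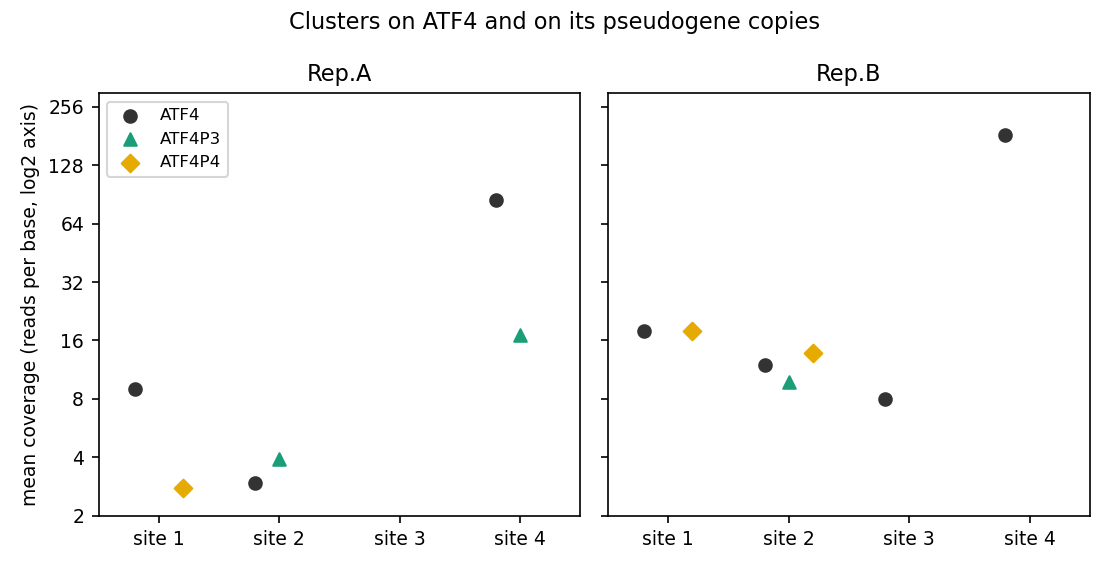
Mean coverage in reads per base (log2 axis) of clusters at the ATF4 sites (circles) and at their copies in ATF4P3 (triangles) and ATF4P4 (diamonds), for Rep.A on the left and Rep.B on the right, with no point where no cluster was listed. In Rep.B the circle and the diamond of site 1 lie at nearly the same height, 18 and 17.9.

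GCN1 (ENSG00000089154, chr12:120127202-120194715, minus strand) is the longest of the 4 mRNAs, with 58 exons and 8681 bases on ENST00000300648.7, of which 8016 are coding. Its site lay in exon 49, over codons 2171 to 2179 of 2671, with its middle 81.4% into the coding sequence. The junctions of the exon were 118 bases before it and 127 bases after it. The cluster had 25 bases in Rep.A and 23 in Rep.B, with a common 3′ end. Its sequence occurred at no other place in the genome. Its coverage stood at or above 18.8% of all Rep.A clusters and 24.8% of all Rep.B clusters.

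EIF2S1 (ENSG00000134001, chr14:67360328-67386516, plus strand) has 8 exons and 4154 bases on ENST00000256383.11, of which 3076 are 3′ UTR and 948 coding. Its site lay in exon 2, over codons 58 to 64 of 315, with its middle 19.0% into the coding sequence. The serine that the eIF2 kinases phosphorylate is encoded by codon 52, counting the start codon as codon 1, and 15 bases lay between this codon and the site. The cluster had 20 bases in Rep.A and 19 in Rep.B, with a common 3′ end, and occurred at no other place in the genome. No cluster lay in its long 3′ UTR.

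EIF4EBP1 (ENSG00000187840, chr8:38030534-38060365, plus strand) has 3 exons and 827 bases on ENST00000338825.5, of which 357 are coding and 430 are 3′ UTR. Its site, chr8:38060067-38060103, lay in exon 3, in the 3′ UTR, and began 131 bases past the stop codon. The clusters had a common 5′ end, and their widths were 37 bases for Rep.A and 22 for Rep.B. It was the only site outside ATF4 that lay in a UTR, and its sequence occurred at no other place in the genome.

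**Figure D5:**
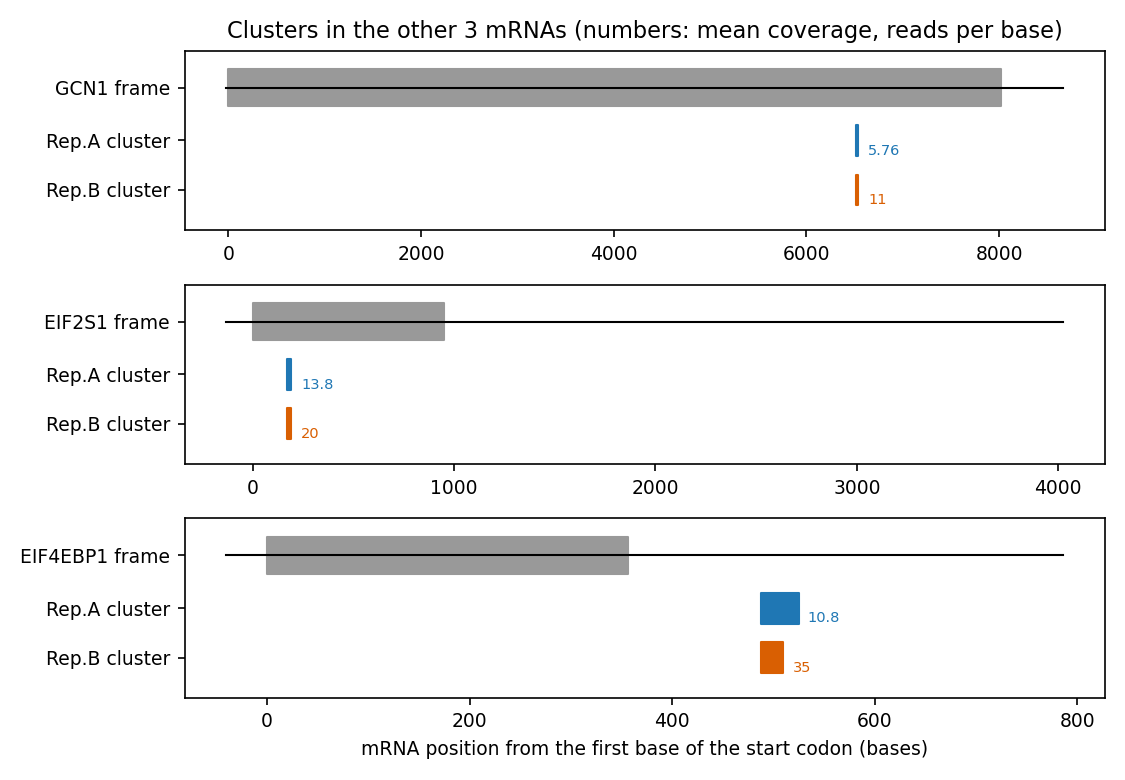
GCN1, EIF2S1 and EIF4EBP1 mRNAs, each to its own scale, with the x axis in bases from the first base of the start codon. Grey bars are coding sequence, the thin line is the mRNA, and blue and orange bars are Rep.A and Rep.B clusters with their mean coverage in reads per base. The sites lie late in the GCN1 frame, early in the EIF2S1 frame and past the EIF4EBP1 stop codon.

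Each of the 13 clusters had 1 T position with T-to-C transitions, as did 85.8% of all clusters. Crosslinking efficiency, the deposited fraction of T bases with a transition, therefore followed from the number of T bases alone. It was 0.33 at ATF4 site 1, which has 3 T bases, and 0.12 at ATF4 site 3, which has 8. The deposited log odds of the transitions, summed over a cluster, were 1.01 in Rep.A and 1.23 in Rep.B at ATF4 site 1, and 0.40 and 0.85 at ATF4 site 4. Site 4 thus had the highest coverage of the 4 genes, and its score stood at or above 24.2% of all Rep.A and 30.1% of all Rep.B clusters. Site 1, with lower coverage, stood at 54.99% and 72.8%. The highest score of the 4 genes was 1.385 at ATF4 site 3 in Rep.B, which stood at 78.4%. The EIF4EBP1 site stood at 70.5% in Rep.A and 33.8% in Rep.B.

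The last base was G in 12 of the 13 clusters, against 83.1% of all Rep.A and 77.7% of all Rep.B clusters, and the exception was the Rep.B cluster of EIF4EBP1, which ended in T. The base before the cluster was G in 3 of the 13, against 42.1% of all clusters. Mean coverage was a whole number, to within 1e-06, in 7 of the 13, against 45.4% of all, a value that can arise when every read of a cluster covers the same bases. The tables hold no reads, so PCR duplicates could not be told apart from separate molecules. The sequence occurred at 1 place in the genome for 6 of the 13, those of GCN1, EIF2S1 and EIF4EBP1, against 53.1% of clusters of 12 to 100 bases.

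A list of 58 genes of the same pathways held 7 with a reproducible site, against 3.32% of all protein-coding genes, and 50 with no cluster in either replicate. Without the 4 genes described, which were chosen by their clusters, 3 of 54 held one. The list was chosen with earlier results of these data known, so neither count carries a test. Since RNA levels are not in the tables, absence of a cluster means that none was detectable at this depth, and the count cannot be set against expression. Of 10 eIF2 kinases and their sensors, GCN1 alone had a cluster. Of 9 genes of eIF2, eIF2B and their partner, EIF2S1 and EIF5 had one. EIF5, which stimulates GTP hydrolysis by eIF2, had a site in its 3′ UTR, 340 bases past the stop codon, with a coverage of 26 for Rep.A and 74 for Rep.B.

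Of 14 genes for ATF4, its partners and its targets, ATF4 alone had a cluster. The 5 genes of the eIF2 phosphatases and the 4 genes of reinitiation had none. Of 9 genes of 4E-BP and cap binding, EIF4EBP1, EIF4G2 and EIF4A1 had a reproducible site. EIF4G2, a relative of eIF4G that does not bind eIF4E, had 5 sites, all in coding sequence, and 4 were reproducible. Their coverage ranged from 9.78 to 64.1 in Rep.A and from 35.4 to 121 in Rep.B. EIF4A1, the helicase of the cap-binding complex, had a site in the coding sequence of exon 10, with 27 for Rep.A and 36 for Rep.B. Its sequence occurs at 5 places or more in the genome, so reads of this site can be listed elsewhere and the reverse, as for ATF4. Of 7 genes of mTOR complex 1 and its regulators, MTOR had 1 cluster, of 36 in Rep.B only, in an exon of a nonsense-mediated decay transcript and not of the selected one.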

How the data were processed

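YB-1 PAR-CLIP was performed in 2 replicates of wild-type HEK293T cells. The authors trimmed reads with cutadapt 2.10 (version per the labels), aligned them to hg38 with Bowtie 1.0.0 and ran wavClusteR on each replicate separately. Their PAR-CLIP steps list no deduplication, while their general account of the sequenced libraries names it without saying for which libraries. The mean coverage the authors deposited is an unscaled signal, the reads per base of a cluster. The deposited counts are whole numbers of T positions with transitions and of T bases. The deposited crosslinking efficiency is the fraction of the one over the other. The log odds as deposited are a score without a fixed range. The ratio of mapped reads is from the study's list.

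Same-strand clusters of both replicates were joined into 1 region from an overlap of 1 base. Genes came from GENCODE release 44, with the transcript of longest coding sequence. Upstream frames were all those that begin with ATG in the 5′ UTR and end at a stop codon. Motif and location shares were taken over regions of at most 60 bases. Exact copies of clusters 12 to 100 bases wide were sought on either strand of the 25 reference chromosomes, and those of the 4 genes also with 1 mismatch. Percentiles are the share of clusters of that replicate at or below the value.

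The 4 genes and the list of 58 were chosen with earlier results of these data known. The genes named are the 4 genes, every listed gene with a cluster, and pseudogenes with a copy of an ATF4 site. HNRNPC, ARF1, PAIP2, TUBB, ZNF146 and ZNF142 were named after their values were seen. With 1 condition no test was made, and the replicates give only the spread between 2 libraries.

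The alternatives were a score threshold, sequences at 1 place in the genome, exons in place of spans, RefSeq spans, 50% reciprocal overlap, other transcripts, other centring, log odds in place of coverage, sites extended by 10 bases and each replicate left out. The sum of coverage over ATF4 and its copies was chosen after seeing the data. The scripts were tested on simulated data. Python 3.11.15, numpy 2.4.6, pandas 2.3.3, pysam 0.24.0, biopython 1.88 and matplotlib 3.10.9 were used.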

Additional observations from a re-analysis of the deposited data

How the results depend on the processing

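Of 43 values recomputed under alternatives, 35 kept within the spread between replicates or within 1.5 times the count, and 8 moved. With clusters at or above the median relative log odds of their replicate, 4 clusters and 1 reproducible site were left. These were both clusters of ATF4 site 1 and the Rep.B clusters of ATF4 site 2 and EIF2S1. The relative log odds are the summed log odds divided by the number of T bases, so few T bases raise them. The clusters left had 3 or 4 T bases. ATF4 site 3 in Rep.B, with 8 T bases, was dropped, though its summed log odds stood at or above 78.4% of Rep.B clusters. With sequences at 1 place in the genome, 6 clusters and 3 reproducible sites were left, those of GCN1, EIF2S1 and EIF4EBP1. With 1 replicate left out, the count was 6 to 7 clusters, fewer because fewer libraries entered. With log odds in place of coverage, the centred difference, in SD of all pairs, was 0.88 at EIF2S1, -1.11 at EIF4EBP1, 0.05 at ATF4 site 1 and 0.57 at ATF4 site 4, all opposite in sign to coverage, and the median over the 6 sites was 0.31 against -0.44 for coverage in the same unit. The cause was not tested. Centring on mapped reads or on pairs in protein-coding exons left the median log2 difference of coverage at -0.34, against -0.32, and adding the ATF4 copies gave -0.11, a value set by which copies had a cluster. No paired analysis was possible because there was 1 condition. ATF4 site 2 in Rep.A, at 2.96 reads per base, stood at or above only 1.88% of Rep.A clusters, which limits the precision of its values.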
